A study of Mus musculus with 24 samples.

Results

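The 32 genes described here are immediate early and stress-induced genes (Fos, Fosb, Fosl2, Jun, Junb, Jund, Egr1, Egr2, Egr3, Ier2, Ier3, Ier5, Atf3, Btg1, Btg2, Dusp1, Dusp2, Dusp5, Zfp36, Zfp36l1, Nr4a2, Nr4a3, Klf2, Klf4, Klf6, Maff, Rhob, Socs3, Myc, Gadd45b, Csrnp1 and Sgk1). They were listed by name, but with earlier results of these data known, so the list was not blind to their values. All 32 were found among the 41388 genes of the count table, and all 32 passed the filter on low counts. They were measured by RNA-seq in macrophages sorted in bulk from dura mater (the tough sheath of the brain) and from diaphragm (the muscle of breathing). The labels of both tissues describe wild type C57BL/6 mice of 17 weeks at steady state, whose blood was flushed out with saline before the dura was taken out and digested. How the diaphragm was digested and whether the samples are separate animals are points the sources used here do not give, so p-values measure the spread between these libraries, which may be technical. The title of the series speaks of RAG-1 deficient mice given T cells, whereas the labels of these samples do not.

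The 9 dural libraries carry a mark (P6, P5 or P4) and a number (1, 3 or 4), and every mark occurs once with every number. Macrophages of both tissues are labelled as subsets C1, C2 and C3, but neither the marks nor the numbers are tied to those subsets, so the marks are used as written. The 7 diaphragm libraries (1, 7, 2, 8, 3, 6 and 9) carry a number alone. Depth was 10457920 to 24077834 counts in dura (median 12765528) and 11053351 to 30132295 in diaphragm (median 23498989). Values are CPM, counts scaled to a library of 1e+06 with trimmed-mean (TMM) factors. A gene is called where the adjusted p of edgeR's quasi-likelihood test, corrected over all genes tested by the Benjamini-Hochberg method, is under 0.05.

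The libraries had the character of macrophages, since the sum of 10 pan-macrophage markers was 30860 to 36630 CPM in dura and 28240 to 38020 CPM in diaphragm. Markers of other cells moved with tissue and mark. The sum of 6 skeletal muscle markers was 0 to 1.91 CPM in dura and 119.4 to 272.7 CPM in diaphragm, and that of 6 endothelial markers was 13.4 to 153.2 CPM in dura and 25.6 to 981.3 CPM in diaphragm. The sum of 7 fibroblast markers was 251 to 389.5 CPM in P6, 584.6 to 772.6 CPM in P5 and 2064 to 3749 CPM in P4 libraries, and it was 15370 and 7411 CPM in diaphragm libraries 1 and 7 and 276.4 to 807.3 CPM in the other 5. The sum of 6 classical monocyte markers was 1533 to 1697 CPM in P6 libraries, 103.9 to 482.7 CPM in the other dural libraries and 484.1 to 2945 CPM in diaphragm, where libraries 3, 6 and 9 were highest. The sum of 6 dendritic cell markers was 18.5 to 48.9 CPM in dura and 81.5 to 527.5 CPM in diaphragm, again with libraries 3, 6 and 9 highest. The part of any of these cells in the results that follow was not tested, and in bulk samples fewer cells of a type and less RNA per cell cannot be told apart.

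Immediate early genes are switched on by factors already present in the cell, with no need for new protein, when growth factors, cytokines, microbial products or physical stress activate kinases. Serum response factor at CArG boxes and CREB at cyclic AMP response elements are the best known routes. The first products include the AP-1 subunits of the FOS and JUN families and the EGR and NR4A factors, and they are followed by feedback proteins that remove phosphate from MAP kinases or shorten the life of induced messages. The messages themselves decay fast. In macrophages the family is known for the early response to bacterial products, and in many tissues it also responds to enzymatic digestion. The libraries used here include no undigested tissue, so levels before dissociation were not measured.

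Shown first are 4 genes whose levels did not overlap between the tissues, with the promoter elements through which the family is known to respond. The sequences run from 250 bases before to 50 bases after the start given by RefSeq (GRCm38.p6), 5′ to 3′ on the strand of the gene. Capitals mark matches to TGACGT on either strand, which is the core of the cyclic AMP response element, to the CArG box and to TATAAA. They are Fos at chr12:85473640-85473939 (plus strand), Btg2 at chr1:134079106-134079405 (minus strand), Nr4a3 at chr4:48045055-48045354 (plus strand) and Dusp5 at chr19:53528895-53529194 (plus strand).
Fos: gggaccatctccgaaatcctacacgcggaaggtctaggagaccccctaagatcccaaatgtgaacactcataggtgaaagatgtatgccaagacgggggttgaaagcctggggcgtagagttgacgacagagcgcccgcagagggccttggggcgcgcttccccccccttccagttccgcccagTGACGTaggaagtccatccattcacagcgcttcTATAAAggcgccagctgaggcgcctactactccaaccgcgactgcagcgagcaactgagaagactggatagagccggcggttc
Btg2: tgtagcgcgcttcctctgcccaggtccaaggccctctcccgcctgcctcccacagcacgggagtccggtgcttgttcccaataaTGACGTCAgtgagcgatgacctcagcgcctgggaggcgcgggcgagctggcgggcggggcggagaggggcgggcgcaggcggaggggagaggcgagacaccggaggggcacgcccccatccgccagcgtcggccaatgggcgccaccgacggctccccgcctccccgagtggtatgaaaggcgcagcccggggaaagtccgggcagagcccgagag
Nr4a3: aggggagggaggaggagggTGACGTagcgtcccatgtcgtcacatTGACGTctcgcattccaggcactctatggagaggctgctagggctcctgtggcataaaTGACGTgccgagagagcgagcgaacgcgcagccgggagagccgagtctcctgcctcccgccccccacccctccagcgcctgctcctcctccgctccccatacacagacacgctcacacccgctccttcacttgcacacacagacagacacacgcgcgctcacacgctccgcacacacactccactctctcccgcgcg
Dusp5: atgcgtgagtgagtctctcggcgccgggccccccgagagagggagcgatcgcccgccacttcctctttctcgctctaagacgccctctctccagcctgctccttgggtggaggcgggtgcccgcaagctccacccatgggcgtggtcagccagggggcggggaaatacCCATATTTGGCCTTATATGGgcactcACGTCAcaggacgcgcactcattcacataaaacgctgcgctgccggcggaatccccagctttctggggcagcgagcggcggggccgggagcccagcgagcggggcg
Fos holds 1 TGACGT that begins 66 bases before the start and a TATAAA at 33 bases before it. Btg2 holds the full palindrome TGACGTCA at 166 bases before the start, which reads TGACGT on both strands. Nr4a3 holds 3 copies of TGACGT, at 231, 205 and 147 bases before the start. Dusp5 holds 2 CArG boxes side by side, at 82 and 72 bases before the start, and 1 TGACGT at 56. The first 2 genes were higher and the last 2 lower in dura, and the same element stands in both kinds.

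RefSeq windows of 300 bases were found for 28 of the 32 genes (42 windows), and Egr1, Egr3, Ier2 and Myc were not matched. TGACGT was present in 11 of the 42 windows (26.2%), belonging to 9 genes (Atf3, Btg1, Btg2, Dusp1, Dusp5, Egr2, Fos, Maff and Nr4a3), and in 7.51% of all 32851 windows. Its palindrome TGACGTCA, which contains TGACGT, was present in 3 of the 42 windows (7.14%; Btg2, Dusp1 and Maff) and in 1.79% of all windows. The CArG box was present in 6 of the 42 windows (14.3%), belonging to Dusp5, Egr2 and Zfp36, and in 1.63% of all windows. The EGR motif GCGGGGGCG was present in 7 of the 42 windows (Dusp2, Fosb, Fosl2, Klf2, Klf4, Socs3 and Zfp36) and in 2.91% of all windows. TATAAA was present in 8 of the 42 windows (19.0%), belonging to 7 genes, and in 13.6% of all windows. The kappa-B site was present in 4 of the 42 windows (9.52%), belonging to Egr2, Fos, Fosb and Fosl2, and in 5.8% of all windows. The AP-1 motif TGAGTCA was present in 1 of the 42 windows (2.38%), for Csrnp1 alone among the 28 genes, and in 5.2% of all windows. All motifs were sought on both strands, windows of 1 gene can overlap, and a match is a run of letters, not a bound site.

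The family was abundant in every library. The 32 genes together made up 44400 to 45260 CPM in P6, 46800 to 49800 CPM in P5 and 35270 to 39960 CPM in P4 libraries of dura, against 34100 to 47260 CPM in diaphragm. Per kilobase of exon, Fos (2134 CPM per kb), Junb (1921) and Zfp36 (1757) had the highest mean levels in dura, and Junb (1941), Zfp36 (1375) and Fos (1190) had the highest in diaphragm. The lowest levels per kilobase in dura were those of Nr4a2 (5.84), Egr3 (6.82) and Nr4a3 (7.001), and in diaphragm those of Egr3 (12.1), Nr4a2 (28.8) and Myc (30.5).

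**Figure D1:**
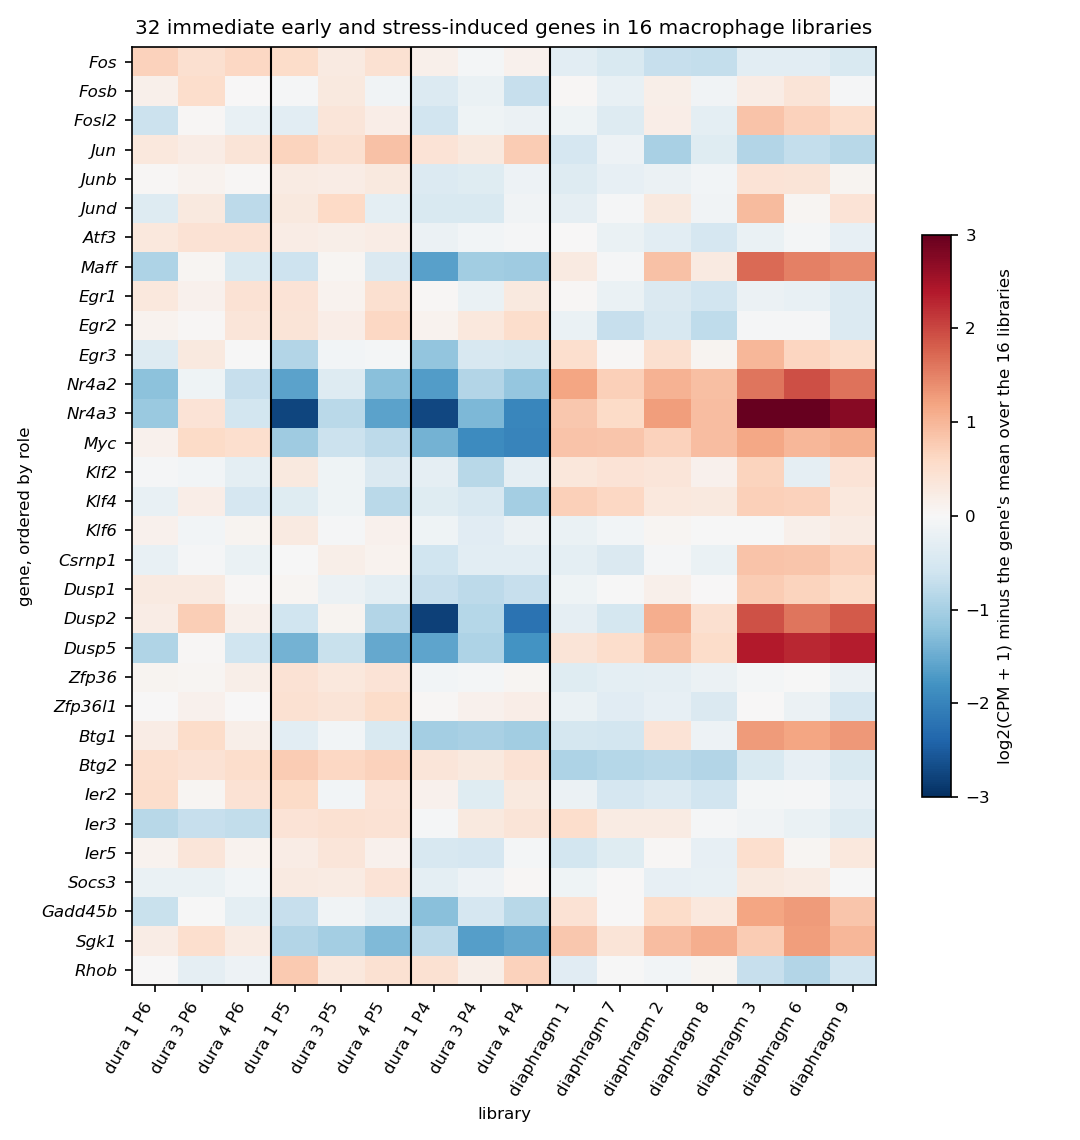
Each row is 1 of the 32 genes and each column 1 of the 16 libraries, with the dural P6, P5 and P4 libraries to the left of the diaphragm libraries, and colour gives log2(CPM + 1) minus the mean of the gene over all libraries. Nr4a2, Nr4a3, Dusp5 and Myc are low across dura and high across diaphragm, Jun and Btg2 show the opposite, and Nr4a3 and Dusp5 are highest in diaphragm libraries 3, 6 and 9.

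The first comparison set the 9 dural libraries against the 7 diaphragm libraries, over 13136 genes. The family did not move one way between the tissues. AP-1 core subunits Fos and Jun, the antiproliferative gene Btg2 and the early growth response genes Egr1 and Egr2 were among 10 genes that were higher in dura, while the nuclear receptors Nr4a2 and Nr4a3, the phosphatase Dusp5, the small MAF protein gene Maff and the growth regulator Myc were among 11 that were lower. The other 11 did not pass the test. Of all genes tested 26.4% were called (11.2% higher and 15.3% lower), against 65.6% of the 32. Higher calls were 42.2% of all calls, but 61% when libraries were scaled by their totals alone and 54.3% with upper-quartile factors. The median log2 fold change was -0.21 over the 32 genes and -0.011 over all genes. Groups did not overlap for 4 higher genes (Fos, Jun, Egr2 and Btg2; 2.47% of all genes) and 6 lower genes (Dusp5, Nr4a2, Nr4a3, Klf4, Myc and Gadd45b; 4.42% of all genes).

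**Figure D2:**
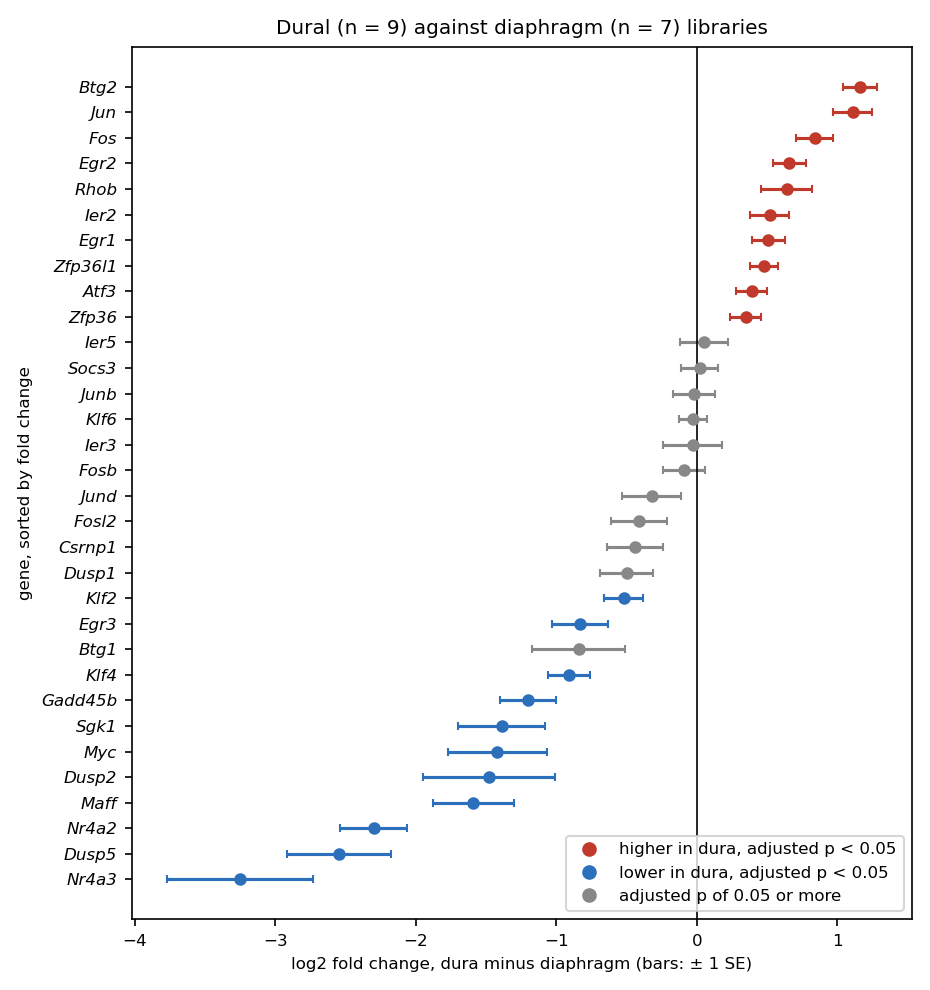
Points give the log2 fold change of dura (9 libraries) minus diaphragm (7 libraries) for the 32 genes, bars give 1 SE, and colour gives the call at an adjusted p of 0.05. Values run from 1.16 for Btg2 to -3.25 for Nr4a3, with 10 genes called higher and 11 called lower.

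Among the AP-1 subunits, Fos stood at 6196, 5338 and 5964 CPM in the P6 libraries, 5646, 4610 and 5245 CPM in the P5 libraries and 4264, 3717 and 4187 CPM in the P4 libraries of dura (numbers 1, 3 and 4, the order used throughout), against a lowest, median and highest of 2353, 2789 and 3096 CPM in diaphragm. Every dural library was above every diaphragm library, and Fos was higher in dura by a log2 fold change of 0.84 ± 0.13 (SE; adjusted p by edgeR = 0.000119). Jun, the usual partner of FOS proteins in AP-1, stood at 2394, 2223 and 2498 CPM in P6, 3047, 2665 and 3511 CPM in P5 and 2545, 2349 and 3270 CPM in P4 libraries, against 974, 1171 and 1733 CPM (lowest, median and highest) in diaphragm. Its groups did not overlap either, and its log2 fold change was 1.11 ± 0.14 (adjusted p by edgeR = 2.84e-05). Reads of Jun cannot be told apart from those of the antisense gene Junos over 7.3% of its exonic length, since the libraries are unstranded. Junos had 152 counts in all libraries together and Jun 568782, but how reads over the shared stretch were assigned is not given.

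The other FOS and JUN genes of the list did not pass the test. Junb, which forms less active AP-1 dimers than Jun, ranged over 3295 to 5345 CPM in dura and 3365 to 5783 CPM in diaphragm, with a log2 fold change of -0.02 ± 0.15 (adjusted p by edgeR = 0.954). Fosb ranged over 1449 to 3322 CPM in dura and 1996 to 3024 CPM in diaphragm (-0.09 ± 0.15). Fosl2, a longer-lived FOS relative, ranged over 513.3 to 1033 CPM in dura and 609.8 to 1442 CPM in diaphragm (-0.41 ± 0.20, adjusted p by edgeR = 0.134), and it passed as lower in dura once diaphragm libraries 1 and 7 were left out (adjusted p by edgeR = 0.0304). Jund, the constitutive JUN gene, ranged over 729.4 to 1902 CPM in dura and 1050 to 2447 CPM in diaphragm (-0.32 ± 0.21). All 4 overlapped widely between the tissues. Fosl1, a FOS gene outside the list, was called lower in dura at low levels, with means of 0.698 CPM in dura and 18.8 CPM in diaphragm (-4.71 ± 0.47, adjusted p by edgeR = 2.05e-06). Jund shares 52.6% of its exonic length with the antisense gene Gm11175, to which no count was assigned. Junb shares 7.5% with the opposite-strand gene Prdx2, which had 30426 counts against 1258882 for Junb. How reads over such shared stretches were assigned is not given, so a low count does not show that the opposite gene was silent.

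The AP-1 relatives Atf3 and Maff went opposite ways. Atf3, a stress-induced factor of the ATF and CREB family, ranged over 1165 to 1784 CPM in dura (median 1547) and 938.5 to 1323 CPM in diaphragm (median 1146), and was higher in dura by 0.39 ± 0.11 (adjusted p by edgeR = 0.0137). Its highest diaphragm library lay above the P4 libraries, so the groups overlapped. Its call ended without the P5 libraries (adjusted p by edgeR = 0.07), the P6 libraries (0.0531) or diaphragm libraries 2 and 8 (0.06). Maff, which encodes a small MAF protein without an activation domain of its own, stood at 86.7, 173.6 and 121 CPM in P6, 108.2, 173.2 and 123.5 CPM in P5 and 52.7, 80.5 and 78.8 CPM in P4 libraries, against 162.3, 307.4 and 543.8 CPM (lowest, median and highest) in diaphragm. Only the P6 and P5 libraries of number 3 reached above the lowest diaphragm library, and Maff was lower in dura by a log2 fold change of -1.59 ± 0.29 (adjusted p by edgeR = 0.000662). Without diaphragm libraries 3, 6 and 9 the value was -0.94 (adjusted p by edgeR = 0.0255).

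Of the early growth response genes, zinc finger factors that bind GC-rich sites, Egr1 and Egr2 were higher and Egr3 was lower in dura. Egr1 ranged over 2172 to 3475 CPM in dura (median 3018) and 1666 to 2527 CPM in diaphragm (median 2127), with a log2 fold change of 0.51 ± 0.12 (adjusted p by edgeR = 0.00423). Its call ended with the dural libraries summed per number (0.52, adjusted p by edgeR = 0.0771). Egr2, known as a factor of macrophage activation states and of myelinating glia, stood at 262.9, 251.7 and 317.4 CPM in P6, 319.2, 281.8 and 377.4 CPM in P5 and 262.9, 306.9 and 354.5 CPM in P4 libraries, against 144, 183.4 and 239.1 CPM (lowest, median and highest) in diaphragm. Each dural library was above each diaphragm library, and Egr2 was higher by 0.66 ± 0.12 (adjusted p by edgeR = 0.000953). Egr3, at much lower counts, ranged over 15.8 to 46.2 CPM in dura and 38.4 to 75.7 CPM in diaphragm and was lower by a log2 fold change of -0.83 ± 0.20 (adjusted p by edgeR = 0.00504). Without diaphragm libraries 3, 6 and 9 the call for Egr3 ended (-0.58, adjusted p by edgeR = 0.0942).

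The NR4A genes encode orphan nuclear receptors that are active without a known ligand and are controlled by their amount. Nr4a3 stood at 40.1, 117.3 and 60.4 CPM in P6, 12.3, 50.2 and 28.6 CPM in P5 and 12.4, 33.9 and 22.0 CPM in P4 libraries of dura, against 156.5, 131.7, 214.2, 169.8, 705.8, 815.1 and 591.5 CPM in diaphragm libraries 1, 7, 2, 8, 3, 6 and 9. All dural libraries were below all diaphragm libraries, and the diaphragm libraries themselves fell into a low set of 4 and a high set of 3. The log2 fold change was -3.25 ± 0.52 (adjusted p by edgeR = 0.000255), and -1.97 (adjusted p by edgeR = 0.00869) without diaphragm libraries 3, 6 and 9. Nr4a2 stood at 18.7, 41.8 and 27.7 CPM in P6, 14.3, 34.7 and 18.6 CPM in P5 and 13.5, 24.3 and 19.8 CPM in P4 libraries, against 75.0, 104.9 and 175.2 CPM (lowest, median and highest) in diaphragm. Its groups did not overlap and its log2 fold change was -2.30 ± 0.24 (adjusted p by edgeR = 3.94e-06). The related gene Nr4a1, which is outside the list, was more abundant, with means of 896 CPM in dura and 1130 CPM in diaphragm. Nr4a1 was not called between the tissues (-0.33 ± 0.14, adjusted p by edgeR = 0.0937).

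Myc, a driver of growth and ribosome production, stood at 47.0, 63.6 and 60.8 CPM in P6, 19.99, 27.1 and 24.5 CPM in P5 and 15.4, 10.9 and 10.04 CPM in P4 libraries, against 69.6, 82.6 and 97.2 CPM (lowest, median and highest) in diaphragm. The groups did not overlap, and within dura the P6 libraries lay nearest to diaphragm. The log2 fold change was -1.42 ± 0.35 (adjusted p by edgeR = 0.00611). The call for Myc ended without the P5 libraries (adjusted p by edgeR = 0.0573) and without diaphragm libraries 3, 6 and 9 (adjusted p by edgeR = 0.0521), where the fold changes were -1.26 and -1.27.

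Of the Krüppel-like factors, which bind GC-rich promoters, 2 of 3 were lower in dura. Klf4, a factor of monocyte differentiation, ranged over 179.4 to 417 CPM in dura (median 279.8) and 443.4 to 597 CPM in diaphragm (median 558), with no overlap and a log2 fold change of -0.91 ± 0.15 (adjusted p by edgeR = 0.00024). Klf2, known for restraining inflammatory activation of endothelium and monocytes, ranged over 249.4 to 543.7 CPM in dura and 366.3 to 698.3 CPM in diaphragm and was lower by a log2 fold change of -0.52 ± 0.14 (adjusted p by edgeR = 0.0137). Without the P4 libraries its call ended (adjusted p by edgeR = 0.0687). Endothelial markers moved with tissue too, at the sums given above. Klf6 ranged over 1302 to 1992 CPM in dura and 1427 to 1955 CPM in diaphragm (-0.03 ± 0.10, adjusted p by edgeR = 0.85). Csrnp1, a nuclear protein gene induced by AXIN1, ranged over 672 to 1148 CPM in dura and 749.8 to 1823 CPM in diaphragm and missed the threshold (-0.44 ± 0.20, adjusted p by edgeR = 0.112), but passed it as lower without diaphragm libraries 1 and 7 (-0.64, adjusted p by edgeR = 0.0141).

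The DUSP genes encode phosphatases that switch MAP kinases off. Dusp5, a nuclear phosphatase of ERK, stood at 44.0, 85.2 and 54.1 CPM in P6, 30.2, 51.7 and 27.9 CPM in P5 and 26.9, 43.0 and 23.1 CPM in P4 libraries, against 109, 118.6, 155.9, 121.2, 433.7, 398.6 and 425.2 CPM in diaphragm libraries 1, 7, 2, 8, 3, 6 and 9. No dural library reached the lowest diaphragm library, and the same 3 diaphragm libraries as for Nr4a3 were high. Dusp5 was lower by a log2 fold change of -2.55 ± 0.37 (adjusted p by edgeR = 8.64e-05), and by -1.52 (adjusted p by edgeR = 0.00181) without diaphragm libraries 3, 6 and 9. Over 22.1% of its exonic length it lies opposite the antisense gene AC137853.2, whose reads would be counted with it. Dusp2, another nuclear MAP kinase phosphatase of immune cells, stood at 139, 199.8 and 132.8 CPM in P6, 79.0, 125.7 and 64.3 CPM in P5 and 16.3, 65.7 and 25.1 CPM in P4 libraries, against 82.4, 255.3 and 449.4 CPM (lowest, median and highest) in diaphragm. The groups overlapped, and Dusp2 was lower in dura by a log2 fold change of -1.48 ± 0.47 (adjusted p by edgeR = 0.0276). That call ended without dural library 4 of P5 (adjusted p by edgeR = 0.0503), diaphragm library 3 (0.0687), 6 (0.0534) or 9 (0.0605), and without these 3 together the value was -0.65 (0.433). Dusp1, which acts on p38 and JNK and restrains inflammatory cytokine messages, ranged over 1720 to 3564 CPM in dura and 2722 to 4976 CPM in diaphragm (-0.50 ± 0.19, adjusted p by edgeR = 0.0619). It passed as lower without dural library 1 of P6 (adjusted p by edgeR = 0.0397), dural library 3 of P6 (0.0398) or diaphragm library 1 (0.0494). On all libraries it passed as lower with DESeq2 (adjusted p by DESeq2 = 0.0272). It also did so with a filter of at least 50 counts in 7 libraries (adjusted p by edgeR = 0.0491). Without diaphragm libraries 3, 6 and 9 it was at -0.15 (adjusted p by edgeR = 0.654), and without the P4 libraries at -0.29 (0.271).

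Of the 4 genes of the BTG and ZFP36 families, whose proteins act on messenger RNA, Btg2, Zfp36 and Zfp36l1 were called higher in dura and Btg1 was not called. Btg2, which slows the cell cycle and speeds the removal of poly(A) tails, stood at 2799, 2683 and 2830 CPM in P6, 3320, 3022 and 3179 CPM in P5 and 2551, 2421 and 2667 CPM in P4 libraries, against 1029, 1129 and 1667 CPM (lowest, median and highest) in diaphragm. The groups lay far apart. The log2 fold change was 1.16 ± 0.12 (adjusted p by edgeR = 3.1e-06). Its relative Btg1 ranged over 227 to 681 CPM in dura and 315.9 to 1158 CPM in diaphragm and missed the threshold (-0.84 ± 0.33, adjusted p by edgeR = 0.0648). Btg1 passed as lower without dural library 3 of P6 (adjusted p by edgeR = 0.0364) or without diaphragm library 1 (0.0365), 7 (0.0354) or 8 (0.0482). On all libraries it passed as lower with DESeq2 (-0.85, adjusted p by DESeq2 = 0.025). Without diaphragm libraries 3, 6 and 9 it was at -0.03 (adjusted p by edgeR = 0.961). Zfp36, which encodes tristetraprolin, a protein that marks inflammatory messages with AU-rich elements for decay, ranged over 5172 to 7306 CPM in dura and 4264 to 5397 CPM in diaphragm, and was higher by 0.35 ± 0.11 (adjusted p by edgeR = 0.0205). Its call ended without the P5 libraries (adjusted p by edgeR = 0.175), without diaphragm libraries 1 and 7 (0.0614) and without 2 and 8 (0.0586), with no filter (0.0623) and with limma on log2(CPM + 1) (0.0766). Zfp36l1, of the same family, ranged over 513.9 to 742.5 CPM in dura and 357.4 to 515.9 CPM in diaphragm and was higher by 0.48 ± 0.10 (adjusted p by edgeR = 0.00273). It shares 55.9% of its exonic length with the opposite-strand gene Gm26669, which had 118 counts against 145136 for Zfp36l1. Here too, how shared reads were assigned is not given.

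The 3 immediate early response genes of the IER group differed from each other. Ier2, a nuclear protein gene induced by growth factors, ranged over 635.2 to 1215 CPM in dura and 543.3 to 793.5 CPM in diaphragm and was higher by 0.52 ± 0.14 (adjusted p by edgeR = 0.0092). The call for Ier2 ended with the dural libraries summed per number (0.53, adjusted p by edgeR = 0.0757). Ier3, which modulates survival and NF-kappaB signalling, ranged over 465.7 to 1132 CPM in dura and 634.1 to 1191 CPM in diaphragm (-0.03 ± 0.21, adjusted p by edgeR = 0.945). Ier5 ranged over 529.5 to 977.1 CPM in dura and 519.2 to 1067 CPM in diaphragm (0.05 ± 0.17, adjusted p by edgeR = 0.863). Neither passed the test, and their signs changed with the libraries left out.

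Of the signalling and stress genes, Sgk1, a kinase gene induced by serum and glucocorticoids, stood at 191.9, 232.6 and 194.9 CPM in P6, 88.9, 80.7 and 64.3 CPM in P5 and 94.8, 51.6 and 55.3 CPM in P4 libraries, against 214.8, 311 and 389.4 CPM (lowest, median and highest) in diaphragm. A single dural library, number 3 of P6, reached above the lowest diaphragm library, and Sgk1 was lower in dura by a log2 fold change of -1.39 ± 0.31 (adjusted p by edgeR = 0.00286). Gadd45b, a stress gene that acts on p38 and JNK pathways, ranged over 146.5 to 348.9 CPM in dura and 352.7 to 856.5 CPM in diaphragm. The groups did not overlap, and the log2 fold change was -1.20 ± 0.20 (adjusted p by edgeR = 0.000352). Without diaphragm libraries 3, 6 and 9 it was -0.78 (adjusted p by edgeR = 0.0117). Rhob, a small GTPase of endosomes, ranged over 771.7 to 1615 CPM in dura and 502.5 to 993.3 CPM in diaphragm and was higher by 0.64 ± 0.18 (adjusted p by edgeR = 0.0147). Its call ended without the P4 libraries (adjusted p by edgeR = 0.0707), the P5 libraries (0.0948), or diaphragm libraries 3, 6 and 9 (0.133). Socs3, the feedback inhibitor of cytokine receptors of the IL-6 type, ranged over 1611 to 2606 CPM in dura and 1659 to 2413 CPM in diaphragm and did not pass (0.02 ± 0.13, adjusted p by edgeR = 0.928).

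**Figure D3:**
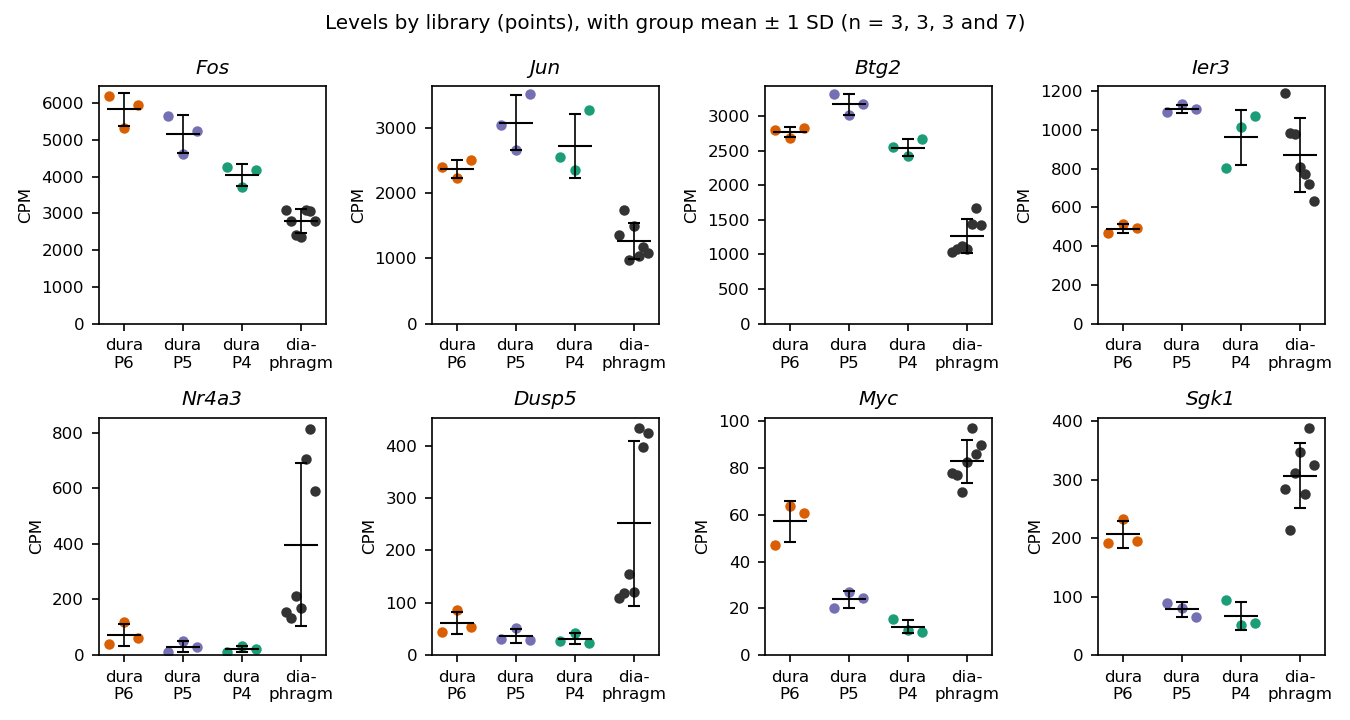
Points give the CPM of each library for 8 genes, with dural marks P6, P5 and P4 (3 libraries each) to the left of diaphragm (7 libraries), and lines give the mean ± 1 SD. Fos, Jun and Btg2 lie higher in every dural library, Nr4a3, Dusp5 and Myc lie lower in every dural library, and Ier3 is low in P6 alone among the dural marks.

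The 7 diaphragm libraries differed among themselves, and because their columns carry a number alone no test was made between them. For 16 of the 32 genes libraries 3, 6 and 9 all lay above libraries 1, 7, 2 and 8, an arrangement seen in 13.9% of all genes, and for Ier3 and Rhob they all lay below (13.5% of all genes). Dusp2 stood at 449.4, 363.3 and 426.1 CPM in libraries 3, 6 and 9, against 98.98, 82.4, 255.3 and 165.7 CPM in libraries 1, 7, 2 and 8. Btg1 stood at 1133, 1066 and 1158 CPM in libraries 3, 6 and 9, against 325, 315.9, 616.8 and 416.5 CPM in libraries 1, 7, 2 and 8. Csrnp1 was split likewise, at 1823, 1791 and 1641 CPM in these 3 and 749.8 to 995.3 CPM in the other 4. The 32 genes together made up 47260, 45830 and 41520 CPM in libraries 3, 6 and 9 and 34760, 34420, 35980 and 34100 CPM in libraries 1, 7, 2 and 8, so the higher set lay within the dural range. Classical monocyte and dendritic cell markers were highest in the same 3 libraries, and their part was not tested.

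The next comparisons were made within dura, between the marks, over 13239 genes. Most of the family was at its lowest in P4. The mean of the P5 libraries was above that of the P4 libraries for all 32 genes, against 49% of all genes tested, and 15 genes had the order P4 below P5 below P6 (28.2% of all genes) while the other 17 were highest in P5 (20.9%). With P6 set against P4, 14 genes were higher and 2 lower, against 16% of all genes called higher and 17.3% called lower. With P6 set against P5, 4 were higher and 6 lower (8.38% and 8.98% of all genes). With P5 set against P4, 14 were higher and none lower (3.09% and 4.26% of all genes). In P5 minus P4 the count of lower genes was also 0 at an unadjusted p under 0.05 in edgeR, and 0 by DESeq2. Marks did not overlap for 18 genes higher and 2 lower in P6 minus P4 (22.7% and 23.9% of all genes), 5 higher and 9 lower in P6 minus P5 (18.3% and 17.7%) and 16 higher and 0 lower in P5 minus P4 (11.2% and 14.7%). The comparisons share libraries, and the call at each is given with its own values. Fibroblast markers ran the other way, highest in P4, and all 7 of them were called lower in P6 and in P5 than in P4. Scaled by library totals alone, which moved the median of all genes by -0.135 in P6 minus P4 and by -0.134 in P5 minus P4, 30 of the 32 genes were above 0 in P5 minus P4 and 8 were called higher. Under that scaling higher calls over all genes were 34.8% of calls in P6 minus P4 (48.1% with TMM) and 22.2% in P5 minus P4 (42% with TMM).

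**Figure D4:**
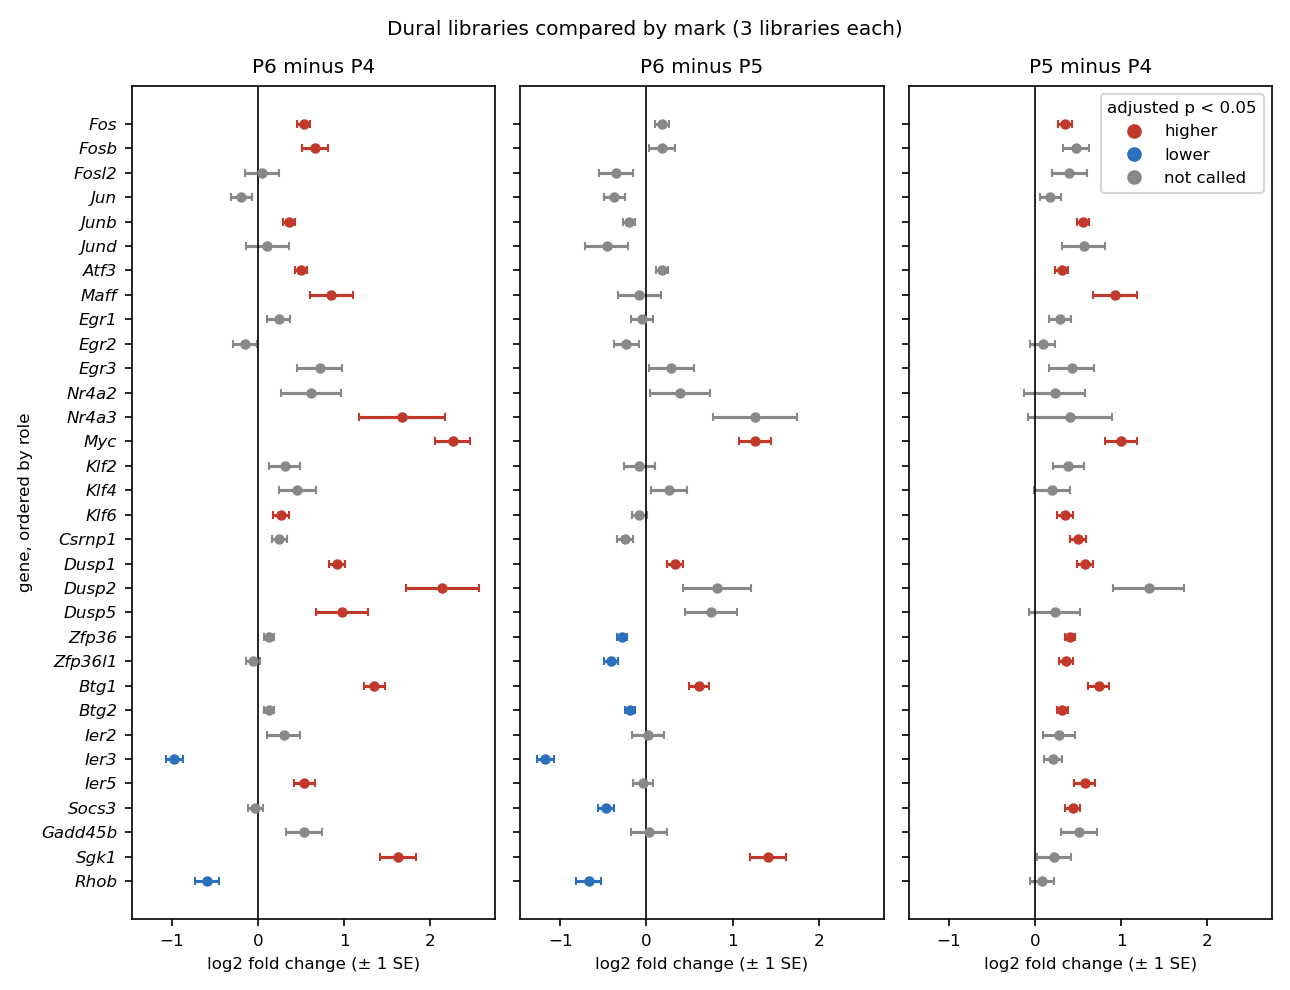
Panels give the log2 fold change of each of the 32 genes for P6 minus P4, P6 minus P5 and P5 minus P4 (3 dural libraries per mark), bars give 1 SE, and colour gives the call at an adjusted p of 0.05. Calls number 14 higher and 2 lower in the first panel, 4 higher and 6 lower in the second and 14 higher and 0 lower in the third.

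Myc, Dusp2, Sgk1, Btg1 and Dusp1 rose in P6 over P4 by the largest amounts that held without any single library. The log2 fold change of Myc was 2.26 ± 0.20 (adjusted p by edgeR = 3.76e-06) in P6 minus P4, 1.26 ± 0.19 (adjusted p by edgeR = 0.000621) in P6 minus P5 and 1.00 ± 0.19 (adjusted p by edgeR = 0.00784) in P5 minus P4, so that each step passed the test. Dusp2 was higher in P6 than in P4 by 2.14 ± 0.42 (adjusted p by edgeR = 0.00196). Its highest library was 4.04 times its lowest within P4, and 1.5 times within P6. Sgk1 was higher in P6 than in P4 by 1.63 ± 0.21 (adjusted p by edgeR = 8.47e-05) and than in P5 by 1.41 ± 0.21 (adjusted p by edgeR = 0.000578), whereas P5 minus P4 gave 0.22 ± 0.20 (adjusted p by edgeR = 0.646).

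Btg1 stood at 547, 681 and 525.6 CPM in P6, 375.7, 442.7 and 336.9 CPM in P5 and 228.9, 237.4 and 227 CPM in P4 libraries. No 2 marks overlapped, and each step was called, at 1.35 ± 0.12, 0.61 ± 0.12 and 0.74 ± 0.12 on the log2 scale for P6 minus P4, P6 minus P5 and P5 minus P4 (adjusted p by edgeR = 4.75e-06, 0.00404 and 0.00255). Dusp1 stood at 3564, 3542 and 3047 CPM in P6, 3059, 2604 and 2401 CPM in P5 and 1829, 1720 and 1844 CPM in P4 libraries, with 0.92 ± 0.09 for P6 minus P4 (adjusted p by edgeR = 8.78e-06) and 0.58 ± 0.09 for P5 minus P4 (adjusted p by edgeR = 0.00161). P6 minus P5 passed at 0.33 ± 0.09 (adjusted p by edgeR = 0.0203), and lost its call without number 1 of P6 (0.0713), number 3 of P6 (0.0804), number 3 of P5 (0.0847) or number 4 of P5 (0.0887).

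Ier3 and Rhob were called lower in P6 than in P4 and than in P5. Ier3 stood at 465.7, 511.8 and 494.4 CPM in P6, 1091, 1132 and 1106 CPM in P5 and 802.5, 1013 and 1071 CPM in P4 libraries. The P6 libraries lay apart from all others, and Ier3 was lower there by a log2 fold change of -0.97 ± 0.10 against P4 (adjusted p by edgeR = 1.78e-05) and -1.17 ± 0.10 against P5 (adjusted p by edgeR = 1.03e-05). Rhob stood at 938.5, 771.7 and 839.6 CPM in P6, 1615, 1156 and 1288 CPM in P5 and 1285, 1054 and 1516 CPM in P4 libraries, and was lower in P6 by -0.59 ± 0.14 against P4 (adjusted p by edgeR = 0.00647) and -0.67 ± 0.14 against P5 (adjusted p by edgeR = 0.00648). In diaphragm the same 2 genes were those lower in libraries 3, 6 and 9, at 772.4, 723 and 634.1 CPM for Ier3 and 581.1, 502.5 and 627.3 CPM for Rhob.

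A set of genes was highest in P5. Zfp36 stood at 5743, 5663 and 6110 CPM in P6, 7306, 6745 and 7235 CPM in P5 and 5172, 5246 and 5658 CPM in P4 libraries, with no overlap between P5 and either other mark. It was lower in P6 than in P5 (-0.28 ± 0.06, adjusted p by edgeR = 0.00443) and higher in P5 than in P4 (0.41 ± 0.06, adjusted p by edgeR = 0.000841). Socs3 stood at 1717, 1710 and 1857 CPM in P6, 2389, 2332 and 2606 CPM in P5 and 1611, 1777 and 2019 CPM in P4 libraries, and followed the same course (-0.47 ± 0.09, adjusted p by edgeR = 0.00259, and 0.44 ± 0.09, adjusted p by edgeR = 0.00758). Zfp36l1 (-0.41 ± 0.08 and 0.36 ± 0.08) and Btg2 (-0.19 ± 0.06 and 0.32 ± 0.06) passed both tests as well. The P6 minus P5 call of Btg2 ended without any of 5 libraries (numbers 1, 3 and 4 of P6 and numbers 1 and 4 of P5; adjusted p by edgeR = 0.111, 0.127, 0.0719, 0.0886 and 0.0858). The P5 minus P4 call of Zfp36l1 ended without number 4 of P5 (0.0573), number 1 of P4 (0.0666) or number 3 of P4 (0.0649).

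Of the AP-1 genes, Fos, Junb, Atf3 and Maff were called higher in P6 and in P5 than in P4. The log2 fold changes of P6 minus P4 and P5 minus P4 were 0.53 ± 0.08 and 0.35 ± 0.08 for Fos, 0.36 ± 0.07 and 0.56 ± 0.07 for Junb, 0.50 ± 0.07 and 0.31 ± 0.07 for Atf3 and 0.85 ± 0.25 and 0.93 ± 0.25 for Maff. Fosb was called higher in P6 than in P4 (0.66 ± 0.15, adjusted p by edgeR = 0.00507), and Jun, Fosl2 and Jund were called in none of the 3 comparisons as fitted by mark alone. In P5 minus P4 the call of Fos ended without number 1 of P5 (adjusted p by edgeR = 0.0606), number 4 of P5 (0.0613) or number 3 of P4 (0.0877), and that of Atf3 without number 1 of P4 (0.0551). The P5 minus P4 call of Maff ended without any of 6 of the 9 libraries (adjusted p by edgeR up to 0.185, without number 3 of P5), and its P6 minus P4 call ended without number 3 of P6 (0.101) or number 1 of P4 (0.0792).

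Ier5, Klf6 and Csrnp1 were higher in P5 than in P4, by 0.58 ± 0.12, 0.35 ± 0.09 and 0.50 ± 0.09. Ier5 and Klf6 also passed in P6 minus P4 (0.54 ± 0.12 and 0.27 ± 0.09), and Csrnp1 did not (0.25 ± 0.09, adjusted p by edgeR = 0.0571). The P5 minus P4 call of Ier5 ended without number 3 of P5 (adjusted p by edgeR = 0.0649), number 1 of P4 (0.0573) or number 3 of P4 (0.0665). That of Klf6 ended without any of 5 libraries (0.0533 to 0.144), and its P6 minus P4 call without any of 4 (0.0568 to 0.137). Dusp5 and Nr4a3 were called higher in P6 than in P4, by 0.98 ± 0.30 (adjusted p by edgeR = 0.0256) and 1.67 ± 0.50 (adjusted p by edgeR = 0.0217), and in each number the P6 library lay above the P4 library. When 1 library was left out the calls could end, at log2 fold changes of 0.67 to 1.30 for Dusp5 and 1.14 to 2.07 for Nr4a3. Without number 3 of P6 the adjusted p was 0.123 for Dusp5 and 0.109 for Nr4a3, without number 1 of P4 it was 0.0827 and 0.0772, and without number 4 of P4 it was 0.0932 and 0.0615. The other Egr, Ier, Nr4a and Klf genes among the 32 (Egr1, Egr2, Egr3, Ier2, Nr4a2, Klf2 and Klf4) and Gadd45b passed in none of the 3 comparisons as fitted by mark alone. With the number as a block, Egr1, Egr3, Ier2, Nr4a2, Klf4 and Gadd45b passed as higher in P6 than in P4 (adjusted p by edgeR of 0.00819 or less). Calls were gained when 1 library was left out, for Egr1, Egr3, Zfp36, Gadd45b and Csrnp1 in P6 minus P4, for Jun, Junb, Jund, Dusp2, Dusp5 and Nr4a3 in P6 minus P5 and for Fosb and Dusp2 in P5 minus P4, with adjusted p between 0.00364 and 0.0491.

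The number in the dural columns moved with the levels as well. Number 3 was the highest of its mark in all 3 marks for 10 genes (Fosb, Fosl2, Btg1, Dusp2, Dusp5, Nr4a2, Nr4a3, Maff, Gadd45b and Csrnp1), against 5.69% of all genes, and the lowest in all 3 for 7 (Fos, Jun, Egr1, Ier2, Btg2, Klf6 and Rhob), against 3.17%. Nr4a2 illustrates the first set, at 41.8 CPM in number 3 against 18.7 and 27.7 CPM in numbers 1 and 4 of P6, 34.7 against 14.3 and 18.6 CPM in P5 and 24.3 against 13.5 and 19.8 CPM in P4. Ier2 illustrates the second, at 840.4 CPM in number 3 against 1175 and 1089 CPM in P6, 768.4 against 1215 and 1082 CPM in P5 and 635.2 against 889.8 and 1003 CPM in P4. These are counts of order within 3 libraries, with no test, and the sources used here do not say what the number stands for.

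Genes of the same pathways outside the 32 were counted in 5 lists, beside 11.2% of all genes called higher and 15.3% called lower in dura. Of 14 AP-1 partners 2 were higher and 9 lower. The large MAF gene Maf was higher (1210 CPM in dura and 663 CPM in diaphragm, log2 fold change 0.86 ± 0.28, adjusted p by edgeR = 0.0291), as was Atf2, while the small MAF gene Mafk was lower (59.6 and 161 CPM, -1.43 ± 0.13, adjusted p by edgeR = 5.52e-07), as was Bach1. Of 43 other immediate early genes tested 3 were higher (Dusp6, Zfp36l2 and Irf1) and 23 lower. Dusp6, the cytoplasmic ERK phosphatase, was at 238 CPM in dura and 123 CPM in diaphragm (0.95 ± 0.18), against the direction of Dusp5. Among the lower ones, Plk2 was at 114 and 259 CPM (-1.19 ± 0.11), Atf4 at 167 and 424 CPM (-1.34 ± 0.15) and Ier5l at 11.6 and 30.4 CPM (-1.39 ± 0.17) in dura and diaphragm.

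Of 29 genes of the route from MAP kinases to serum response factor and CREB, 2 were higher (Rps6ka1 and Map2k7), 8 lower and 19 not called. Map2k3, a kinase upstream of p38, was at 62.3 CPM in dura and 190 CPM in diaphragm (-1.61 ± 0.12, adjusted p by edgeR = 1.05e-07), Crem, whose ICER products repress CREB targets, was at 54.2 and 158 CPM (-1.54 ± 0.21), and Mapkapk2 was at 402 and 682 CPM (-0.76 ± 0.13). Of 10 NF-kappaB feedback genes 1 was higher (Nfkbiz, 2170 CPM in dura and 1460 CPM in diaphragm, 0.58 ± 0.13) and 7 were lower, of which those with the lowest adjusted p were Bcl3 (-1.50 ± 0.18), Relb (-1.35 ± 0.18) and Nfkb2 (-1.16 ± 0.19). The glucocorticoid list holds 9 genes, which are induced genes and the receptor gene Nr3c1. Of these 3 were higher (Nr3c1, Fkbp5 and Per1) and 3 lower (Errfi1, which the other immediate early genes also hold, Cdkn1a and Tsc22d3). Fkbp5 (69.8 CPM in dura and 48.4 CPM in diaphragm, 0.53 ± 0.17) and Tsc22d3 (249 and 410 CPM, -0.72 ± 0.17), both textbook targets of the receptor, differed in direction, and Sgk1 followed Tsc22d3. The median log2 fold changes of these lists were -1.08 (AP-1 partners), -0.88 (other immediate early genes), -0.10 (MAP kinase, serum response factor and CREB), -1.14 (NF-kappaB feedback) and -0.29 (glucocorticoid list), against -0.011 over all genes.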

How the data were processed

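Bulk RNA-seq of sorted macrophages was analysed from a deposited table of raw counts per gene (24 columns, 41388 genes, 40254 with a symbol). Per the labels' protocols, RNA was purified with a Qiagen RNeasy Plus Micro Kit and sequenced as unstranded single-end libraries made with a NEBNext kit. Tools listed in the submitters' processing notes are STAR (2.4.0j), featureCounts and DESeq2 (1.20.0), on build GRCm38, with no further settings. The authors called the table normalised, but the deposited values are whole-number counts whose totals differ between columns, and they were used as deposited.

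Columns were assigned to tissue by name. The 6 repeat columns of diaphragm libraries were summed with their partners, which they matched to near sampling noise (chi-square per degree of freedom 1.008 to 1.169, against at least 10.559 in 108 other pairs of the same tissue), and columns 4 and 5 of diaphragm, with 2115 and 1496 counts, were left out. Gene positions and lengths came from GENCODE on GRCm38.

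Fits used edgeR 4.0.16 (R 4.3.3) with filterByExpr, TMM factors and glmQLFTest, two-sided, with Benjamini-Hochberg adjustment over all genes tested. Dura was compared with diaphragm over 16 libraries, and the marks over the 9 dural libraries, with no covariates. The scripts were tested on simulated data. Alternatives used DESeq2 1.42.0, limma 3.58.1, other scalings, filters and sets of libraries. All 32 genes are described, and of each further list the called counts and at most 3 called genes per direction with the lowest adjusted p and at least 20 CPM in a tissue. Nr4a1, not called between the tissues, and Fosl1, called but under 20 CPM, are named as well, beside the other NR4A and FOS genes. The 32 genes and the lists were chosen with earlier results of these data known. Over the dural columns, deviations of libraries with the same number correlated between -0.005 and 0.171, and those with different numbers between -0.176 and 0.132. For 8 of 9 libraries the highest correlation was with their own number. The sources do not say whether the number pairs the libraries. The main fits left it out, and a fit with the number as a block is given as an alternative.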

Additional observations from a re-analysis of the deposited data

Results flagged for a closer look

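Dusp5 in dural library number 3 of P6, at 85.17 CPM, lay far above the other dural libraries, of which the nearest was at 54.09 CPM. Nr4a3 in the same library, at 117.3 CPM, lay likewise above its nearest neighbour at 60.41 CPM. Each was marked because the gap took up more of the range of the 9 dural libraries than is usual for such a group. Among 64 such groups examined (32 genes in 2 tissues), chance alone marks about 1 in 20. Both genes are among those for which number 3 was the highest library in every mark. Without this library the P6 minus P4 fold changes of Dusp5 and Nr4a3 no longer passed edgeR's test (adjusted p = 0.123 and 0.109), while both stayed lower in dura than in diaphragm.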

How the results depend on the processing

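Across 35 alternatives of dura minus diaphragm, 12 genes were called in every one: Fos, Jun, Egr2, Btg2 and Zfp36l1 as higher and Dusp5, Nr4a2, Nr4a3, Klf4, Maff, Gadd45b and Sgk1 as lower. The count of higher genes among the 32 was 10 (all genes 1465), and 5 (446) with the dural libraries summed per number, where 813 genes in all were called lower in place of 2007. The count of all genes higher was 2350 with library totals alone (median of all genes moved to 0.124, 61% of calls higher against 42.2%), 951 without the P4 libraries and 822 without the P5 libraries (1321 lower). With upper-quartile factors 54.3% of calls were higher. Genes that did not pass the test changed sign: with upper-quartile factors Junb was at 0.056, Ier3 at 0.049 and Klf6 at 0.042; with library totals alone Fosb was at 0.044, Junb at 0.13, Ier3 at 0.101 and Klf6 at 0.107; summed per number Ier3 was at 0.01; without P4 Fosb was at 0.072, Junb at 0.12 and Klf6 at 0.061; without P5 Ier5 was at -0.051 and Socs3 at -0.145; without P6 Ier3 was at 0.278 and Ier5 at -0.006; without diaphragm 1 and 7 Ier3 was at 0.118, Ier5 at -0.105 and Socs3 at -0.011; without 2 and 8 Socs3 was at -0.064; without 3, 6 and 9 Fosb was at 0.046, Fosl2 at 0.041, Junb at 0.262, Klf6 at 0.083 and Csrnp1 at 0.124; without the diaphragm library of 1 run Junb was at 0.057. Leaving out 1 library at a time gave -0.061 to 0.079 for Junb, -0.09 to 0.078 for Ier3, -0.071 to 0.009 for Klf6, -0.014 to 0.171 for Ier5 and -0.035 to 0.097 for Socs3. The cause of these moves was not tested. The calls of Egr1, Ier2, Egr3, Atf3, Zfp36, Klf2, Rhob and Dusp2 were lost with the dural libraries summed per number.

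With the number as a block (replicate block), which the main fits left out, P6 minus P4 gave 23 higher genes among the 32, P6 minus P5 gave 10 higher and 10 lower, and P5 minus P4 gave 794 higher genes in all. The block kept every call of the 32 in each comparison (16, 10 and 14) and added calls, in P6 minus P4 for Egr1, Egr3, Ier2, Btg2, Zfp36, Nr4a2, Klf4, Gadd45b and Csrnp1 as higher and Jun as lower, in P6 minus P5 for Fos, Fosb, Atf3, Dusp2, Dusp5 and Nr4a3 as higher and Fosl2, Jun, Junb and Csrnp1 as lower, and in P5 minus P4 for Fosb, Fosl2, Egr1, Ier2, Dusp2 and Gadd45b as higher. The highest correlation of a library was with its own number for 8 of 9. With no filter P6 minus P4 gave 22 higher among the 32, P6 minus P5 gave 7 and P5 minus P4 gave 22 (all genes 702 higher and 885 lower). With all libraries in one fit, whose spread also takes in the diaphragm libraries, the counts among the 32 were 7 higher and 1 lower for P6 minus P4 (794 and 498 in all), 2 and 1 for P6 minus P5 (73 and 99), and 0 and 0 for P5 minus P4 (3 and 0), where DESeq2 on the dural libraries called 15 of the 32 higher. P5 minus P4 gave 8 higher among the 32 with library totals alone (231 in all) and 629 higher in all with DESeq2. Leaving out 1 dural library gave 692 to 1258 higher and 775 to 1245 lower genes in all for P6 minus P5 (1110 and 1189 with all), and 219 to 441 higher and 285 to 695 lower for P5 minus P4 (409 and 564), with 9 to 15 of the 32 higher. With robust dispersions, an alternative chosen after seeing the data, Dusp5, Nr4a3 and Maff lost the call in P6 minus P4 and Maff that in P5 minus P4. In summed level of the 32 genes, library totals alone gave means of 45280 CPM in P6 and 40850 CPM in P4 libraries, against 44750 and 37040 CPM. Depth limits the low genes first, and counting error weighs most for Egr3, Nr4a2, Nr4a3 and Myc, the lowest in dura.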
